A study of Mus musculus with 14 samples.

Results

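Glycolysis splits glucose into pyruvate through a chain of cytosolic enzymes, and lactate dehydrogenase then reduces pyruvate to lactate so that the chain can run without oxygen. Fetal tissues rely on it heavily, and many of its genes are classical targets of hypoxia-inducible factor, which binds a short core motif in DNA. The 10 genes considered here are, in pathway order, Hk1 and Hk2 (hexokinases, which trap glucose as its phosphate), Pfkl (the liver-type phosphofructokinase subunit), Aldoa (aldolase A, abundant in muscle), Tpi1 (triosephosphate isomerase), Gapdh, Pgk1 (phosphoglycerate kinase), Eno1 (enolase), Pkm (pyruvate kinase of most tissues) and Ldha (lactate dehydrogenase A). The members are all array probes that carry 1 of these symbols and no other in the platform annotation. They came to 12 of 21582 probes, in 8 of the 10 genes (of 15094 genes named by a single symbol): 4 for Hk1, 2 for Hk2 and 1 each for Pfkl, Aldoa, Tpi1, Pgk1, Pkm and Ldha. Expression of Gapdh and Eno1 was not analysed here.

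Total RNA of C57Bl6 mouse fetuses was hybridised to 14 two-colour arrays. In the alcohol-fed group (n = 7) the dams were exposed to ethanol at about 180 to 200 mg/dl on gestational days 15 to 18 (4 days by the protocol, 5 by the sample titles). In the pair-fed group (n = 7) they were fed maltose dextrin (maltose dextrose in some of the label text) on the same days. Fetuses were taken on gestational day 19, and the labels name neither the tissue nor the litters, so p-values cover only how far these samples scatter, part of which may be technical. Each array carried 1 sample in Cy5 and, in Cy3, the same pool of RNA from 7 animals with free access to food and water, named a weight-matched control in the labels. That pool is the untreated control. It counts as 1 control sample, so its own spread is absent from every test against it, and since no array had the dyes exchanged, a dye effect and a difference from the pool cannot be told apart.

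The measure is a log2 ratio per probe and array, centred on the array's median, taken as sample over pool. The channel order makes this direction likely, but no label states it; if it ran the other way, every sign below would turn, differences between the groups included. Values of exactly 0 or at the table's highest value, 2.57% to 14.6% per array, were read as placeholders and left out. The test took the 20876 probes with 4 or more values in both groups. Brightness is unknown, so a low ratio cannot be tied to a spot near background, and in whole samples fewer cells of a type and less RNA per cell cannot be told apart.

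Placeholders were frequent among the glycolytic probes. They took 36 of 168 values (21.4%), 16 on alcohol-fed and 20 on pair-fed arrays, against 5.29% over the whole table. Only 2 of the 12 probes, both for Hk1, had a value on every array (16.7%, against 68.0% of all probes). The test was reached by 10 of the 12 probes, in 7 genes: Pfkl had only 3 alcohol-fed values, and the Hk2 probe X96699 only 3 pair-fed values.

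To show the regulatory sequence of members that were low against the pool, 2 promoters are printed, each from the RefSeq table of build GRCm38.p6. They are the 250 bases before the start of Pgk1 (chrX:106186850-106187099, plus strand) and of Pkm (chr9:59656326-59656575, plus strand), 5′ to 3′. Both genes have a single probe here, passed the test in the alcohol-fed group, and have a window that ends at the gene's outermost annotated start. Capitals mark ACGTG, a core of the hypoxia response element, or its reverse complement CACGT.
Pgk1: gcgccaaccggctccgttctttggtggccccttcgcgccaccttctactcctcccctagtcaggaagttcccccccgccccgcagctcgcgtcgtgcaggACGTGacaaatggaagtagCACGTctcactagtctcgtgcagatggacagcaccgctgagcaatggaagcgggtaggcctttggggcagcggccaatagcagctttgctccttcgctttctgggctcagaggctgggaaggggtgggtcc
Pkm: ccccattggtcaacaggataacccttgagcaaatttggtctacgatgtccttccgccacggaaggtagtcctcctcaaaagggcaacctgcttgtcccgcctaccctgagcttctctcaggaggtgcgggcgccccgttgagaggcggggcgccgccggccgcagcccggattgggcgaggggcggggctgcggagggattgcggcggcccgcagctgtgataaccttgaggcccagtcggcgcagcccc
The motif stood at 2 places before Pgk1, once on each strand, and at none in this Pkm window, although 1 of the 2 Pkm windows in the table held it. Taking the most upstream window of each of the 10 genes, 3 held the motif (30.0%), against 5444 of 32851 windows of all genes (16.6%). These 3 were Pgk1, Hk2 with 2 places and Ldha with 3, where overlapping matches of the palindrome CACGTG count as 1 place. The shares are of unlike sets, since members give 1 window each and the share over all genes counts every window. Aldoa, outside these 3, held the motif in 2 of its 3 windows but not in the most upstream. A match describes letters only, and says nothing of binding in these samples.

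Against the freely fed pool, single probes of 5 glycolytic genes were lower in the alcohol-fed group, and no single probe passed in the pair-fed group. Hk1 did pass there when those of its 4 probes with a value were averaged on each array. With probes averaged, 2033 of 14610 genes were called lower in that group. In the alcohol-fed group limma called 5 of the 10 tested probes lower, for Hk1 (1 of 4 probes), Aldoa, Pgk1, Pkm and Ldha, and 0 higher. Over all probes tested 15.5% were called lower and 8.02% higher. The median of the 10 fitted log2 ratios was -2.17, against 0.007 over all probes, and 9 of 10 were below 0, against 49.8% of all probes. Placeholders fell on 2 to 5 arrays for 8 of the 10 members. Of all such probes tested, 83.1% were below 0. In the pair-fed group 0 of the 10 were called lower and 0 higher, where 13.5% and 7.86% of all probes were. Of the 10, 4 had an unadjusted limma p under 0.05, all of them below the pool. Over all 20876 probes 7531 had such a p, in either direction. The median log2 ratio of the 10 members was -1.25, with -0.03 over all probes, and 8 of 10 were below 0, against 51.4% of all probes. Of the probes with placeholders on 2 to 5 arrays, 80.2% were below 0. The splits into lower and higher calls move with the scaling. Over all probes 3238 were called lower and 1675 higher in the alcohol-fed group, against 2458 and 1948 with values as deposited and 3047 and 2894 after quantile normalization. In the pair-fed group 2809 were lower and 1641 higher, against 2053 and 1855 as deposited and 2476 and 2321 after quantile normalization. The members called lower in the alcohol-fed group numbered 5 of 10 under each, where 15.5%, 11.8% and 14.6% of all probes were lower, in that order. Both sets of ratios share the pool, so they are not independent of each other. The call in one group and its absence in the other do not show that the groups differed; the direct test, given for each gene, called none.

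**Figure D1:**
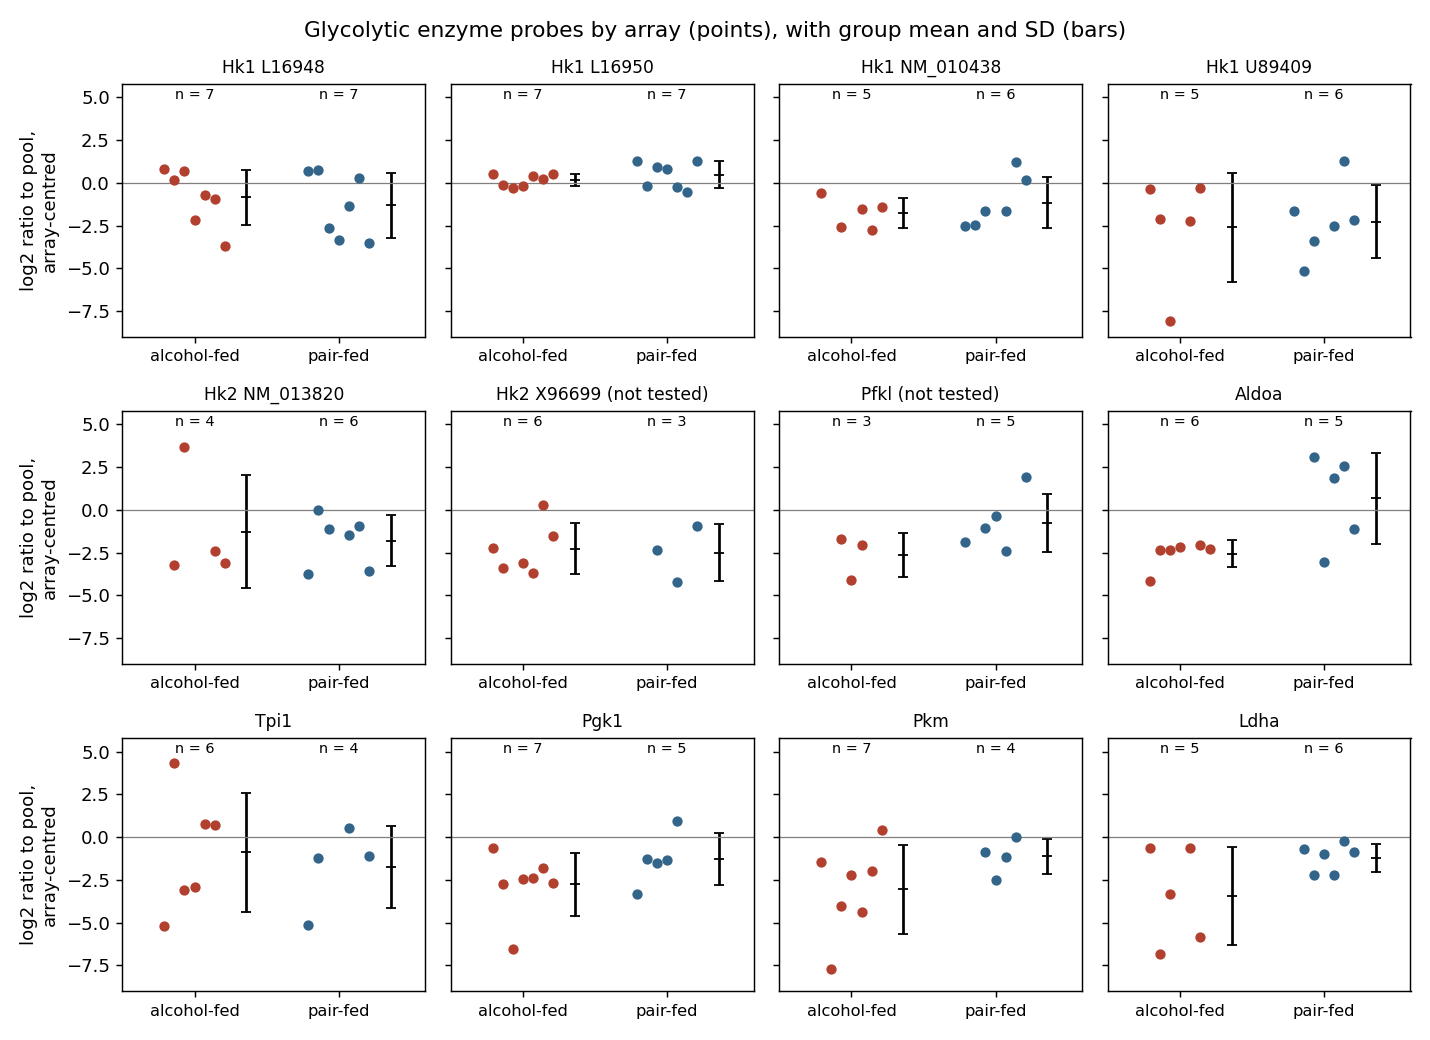
Array-centred log2 ratio to the reference pool (vertical axis) of each of the 12 glycolytic probes, with 1 point per array ordered by replicate number, alcohol-fed in red and pair-fed in blue; bars give the group mean and SD, and n is the number of arrays with a value. Aldoa lies between -4.16 and -2.05 on alcohol-fed arrays and between -3.06 and 3.11 on pair-fed arrays. The Hk1 probe L16950 lies between -0.31 and 0.54 on alcohol-fed arrays and between -0.54 and 1.29 on pair-fed arrays.

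Between alcohol-fed and pair-fed fetuses, no glycolytic probe passed. Among all 20876 probes 0 passed limma's adjusted threshold of 0.05 (0%), and the limma adjusted p was 0.9996 for all 10 members. Before adjustment 881 of the 20876 had a limma p under 0.05, a smaller share than the 0.05 that chance gives when nothing differs. The fitted difference was below 0 for 7 of the 10 and the median difference was -0.48 on the log2 scale, against 0.014 over all probes, of which 48.9% were below 0. Of probes with placeholders on 2 to 5 arrays, where 8 of the 10 lie, 58.5% were below 0, with a median of -0.18. Two-sided unadjusted p-values under 0.05 came from Aldoa and Ldha alone among the members. The groups overlapped for all 10, and of all probes tested 0.115% had groups that did not overlap. Errors were large: the median standard error of a difference was 0.98 for the members and 0.52 over all probes.

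The hexokinases open the pathway, and their probes differed from each other. For Hk1, the ubiquitous isozyme, probe NM_010438 gave log2 ratios of -2.74, -2.57, -1.51, -1.43 and -0.60 on the 5 alcohol-fed arrays with a value. On 6 pair-fed arrays it had a lowest value of -2.52, a median of -1.64 and a highest value of 1.19. All alcohol-fed values were below the pool, as were 4 of the 6 pair-fed values, and the ranges overlapped. Its mean was -1.77 ± 0.51 (limma SE) in the alcohol-fed group (limma adjusted p = 0.0231) and -1.16 ± 0.47 in the pair-fed group (limma adjusted p = 0.0893), a difference of -0.61 with a 95% interval from -2.09 to 0.87. The alcohol-fed call ended without alcohol-fed array 3 or 6 (limma adjusted p of 0.0791 and 0.0798), and pair-fed array 6, the highest, kept the pair-fed mean from passing (-1.63 and limma adjusted p = 0.0187 without it).

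A second Hk1 probe, U89409, was also low, with more spread. Its alcohol-fed values were -8.06, -2.25, -2.11, -0.35 and -0.28, so that array 3 set the mean of -2.61 ± 0.96 (limma SE). On 6 pair-fed arrays it ran from -5.16 through a median of -2.35 to 1.28, with a mean of -2.27 ± 0.88. Neither mean passed (limma adjusted p of 0.0611 and 0.0768), and the difference of -0.34 had an interval from -3.11 to 2.43. Without alcohol-fed array 3 the alcohol-fed mean was -1.25, the difference turned to 1.02, and the pair-fed mean passed through the smaller shared spread (limma adjusted p = 0.0215).

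The remaining Hk1 probes had values on all 14 arrays and passed in neither group. L16948 split within each group: its alcohol-fed values ran from -3.67 through a median of -0.74 to 0.78 and its pair-fed values from -3.51 through -1.37 to 0.73. In both groups 4 arrays were below the pool and 3 above it. L16950 was the steadiest member, at -0.31, 0.20 and 0.54 (lowest, median and highest) on alcohol-fed arrays and at -0.54, 0.79 and 1.29 on pair-fed arrays. Its residual SD of 0.60 was lower than that of all but 8.56% of probes, and its difference of -0.34 ± 0.39 had an interval from -1.16 to 0.49. When the Hk1 probes with a value were averaged on each array, the mean was -1.12 ± 0.32 in the alcohol-fed group. In the pair-fed group it was -1.04 ± 0.32. Both passed the threshold (limma adjusted p of 0.0177 and 0.0277 over 14610 genes), with a difference of -0.09 ± 0.45. Of the 14610 genes 2269 were called lower in the alcohol-fed and 2033 in the pair-fed group. The probes averaged differed between arrays, and alcohol-fed array 4 and pair-fed array 4 had L16948 and L16950 alone.

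Hk2, the inducible hexokinase of muscle and heart, rested on few values. Probe NM_013820 had -3.23, -3.13, -2.39 and 3.71 on 4 alcohol-fed arrays, the last from array 3. On 6 pair-fed arrays its lowest value was -3.73, its median -1.28 and its highest -0.01, so every pair-fed value was below the pool. The alcohol-fed mean was -1.26 ± 0.95 and the pair-fed mean -1.79 ± 0.78 (limma SE), neither past the threshold. Array 3 decided this: without it the alcohol-fed mean was -2.92 (limma adjusted p = 0.0114), the pair-fed mean passed as well (limma adjusted p = 0.0202), and the difference of 0.53 turned to -1.12. The second Hk2 probe, X96699, ran from -3.67 through a median of -2.65 to 0.28 on 6 alcohol-fed arrays and had -4.19, -2.37 and -0.91 on 3 pair-fed arrays. With only 2 arrays per group required, X96699 was at -2.27 ± 0.54 in the alcohol-fed and -2.49 ± 0.76 in the pair-fed group (limma adjusted p of 0.0109 and 0.0366). Averaged on each array, the Hk2 probes gave -1.71 ± 0.67 in the alcohol-fed and -1.91 ± 0.72 in the pair-fed group. Neither average passed (limma adjusted p of 0.0713 and 0.0678).

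Pfkl encodes a subunit of phosphofructokinase, which commits sugar phosphate to glycolysis. Its alcohol-fed values were -4.09, -2.04 and -1.71, all below the pool, and its pair-fed values were -2.41, -1.88, -1.04, -0.34 and 1.95. With 2 arrays per group required, the alcohol-fed mean was -2.61 ± 0.76 (limma adjusted p = 0.0307) and the pair-fed mean -0.74 ± 0.59 (limma adjusted p = 0.395). Their difference of -1.87 ± 0.97 did not pass, and 6 of the 14 arrays had no value.

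Aldoa, which cleaves fructose bisphosphate into triose phosphates, stood farthest apart between the groups among the members. On 6 alcohol-fed arrays its log2 ratios had a lowest value of -4.16, a median of -2.31 and a highest value of -2.05, and 5 of the 6 lay between -2.33 and -2.05. The 5 pair-fed arrays gave -3.06, -1.13, 1.87, 2.59 and 3.11. All alcohol-fed values were thus below the pool, whereas pair-fed values fell on both sides of it, and 1 pair-fed array, number 4, lay within the alcohol-fed range. The mean was -2.56 ± 0.79 in the alcohol-fed group (SD, n = 6; limma adjusted p = 0.0111 against the pool) and 0.68 ± 2.66 in the pair-fed group (SD, n = 5; limma adjusted p = 0.513). The difference of -3.24 ± 0.95 (limma SE) had an interval from -5.26 to -1.21. By unadjusted p (0.00392) it ranked 52 of 20876 probes, and 0.0623% of probes had a lower difference, but it did not pass after adjustment (limma adjusted p = 0.9996). Leaving out 1 array at a time, the difference ran from -4.17 to -2.63, with a lowest limma adjusted p of 0.639.

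Muscle transcripts were examined beside Aldoa, since aldolase A is the muscle isozyme. A gene counted as called when at least 1 of its probes passed. Of 10 measured skeletal muscle genes, 6 were called lower against the pool in the alcohol-fed group and 1, Ttn, higher. By probe 8 of 17 were lower and 1 higher, where 15.5% and 8.02% of all probes were. In the pair-fed group 6 genes were lower and 1 higher, with Ttn called both ways through different probes. By probe 8 of 17 were lower and 1 higher there, where 13.5% and 7.86% of all probes were. The median of the 17 muscle probes on an array ran from -1.16 to -0.40 in the alcohol-fed and from -1.71 to 0.53 in the pair-fed group. Actn3, the alpha-actinin of fast fibres, had a difference of -3.31 ± 0.95 and the Ttn probe with the smallest p 1.10 ± 0.47, with another Ttn probe at -1.07 ± 0.58, none past the threshold, and the median difference of the muscle probes was -0.008. Their part in the Aldoa values was not tested.

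Tpi1, which interconverts the triose phosphates, was the most variable member. Its alcohol-fed values ran from -5.20 through a median of -1.09 to 4.34 on 6 arrays, 3 below the pool and 3 above it. The pair-fed values were -5.12, -1.23, -1.12 and 0.56. The means of -0.89 ± 1.00 and -1.73 ± 1.22 (limma SE) did not pass, and the difference of 0.84 had an interval from -2.55 to 4.22. Its residual SD of 3.12 exceeded that of 99.9% of probes. The sign of the difference hung on single arrays, being -0.21 without alcohol-fed array 2 and -0.29 without pair-fed array 1.

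The enzymes that follow yield ATP or dispose of pyruvate. Pgk1, which makes the first ATP of the chain, had a lowest value of -6.57, a median of -2.46 and a highest of -0.61 on 7 alcohol-fed arrays. On 5 pair-fed arrays it had -3.31, -1.54, -1.31, -1.26 and 0.97. All 7 alcohol-fed values and 4 of the 5 pair-fed values were below the pool. The mean was -2.75 ± 1.84 in the alcohol-fed group (SD, n = 7; limma adjusted p = 0.00274) and -1.29 ± 1.52 in the pair-fed group (SD, n = 5; limma adjusted p = 0.172). The difference of -1.46 ± 0.87 (limma SE) had an interval from -3.30 to 0.38.

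Pkm, whose product forms pyruvate and ATP, had alcohol-fed values from -7.71 through a median of -2.20 to 0.42 on 7 arrays, 6 of them below the pool. Its 4 pair-fed values were -2.48, -1.15, -0.87 and 0.00. The ranges overlapped, since the pair-fed values fell within the alcohol-fed range. The mean was -3.05 ± 2.61 in the alcohol-fed group (SD, n = 7; limma adjusted p = 0.00618) and -1.13 ± 1.03 in the pair-fed group (SD, n = 4; limma adjusted p = 0.395), with a difference of -1.92 ± 1.14 (limma SE; interval from -4.36 to 0.51).

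Ldha, the last step to lactate, was below the pool on every array with a value. The 5 alcohol-fed arrays gave -6.85, -5.83, -3.35, -0.65 and -0.61, and the 6 pair-fed arrays had a lowest value of -2.20, a median of -0.95 and a highest of -0.21. Alcohol-fed arrays 2, 3 and 6 were lower than any pair-fed array, while arrays 1 and 5 lay inside the pair-fed range. The mean was -3.46 ± 2.88 in the alcohol-fed group (SD, n = 5; limma adjusted p = 0.00477) and -1.20 ± 0.82 in the pair-fed group (SD, n = 6; limma adjusted p = 0.221). The difference of -2.26 ± 1.01 (limma SE) had an interval from -4.42 to -0.097 and an unadjusted limma p of 0.0417. It did not pass after adjustment.

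**Figure D2:**
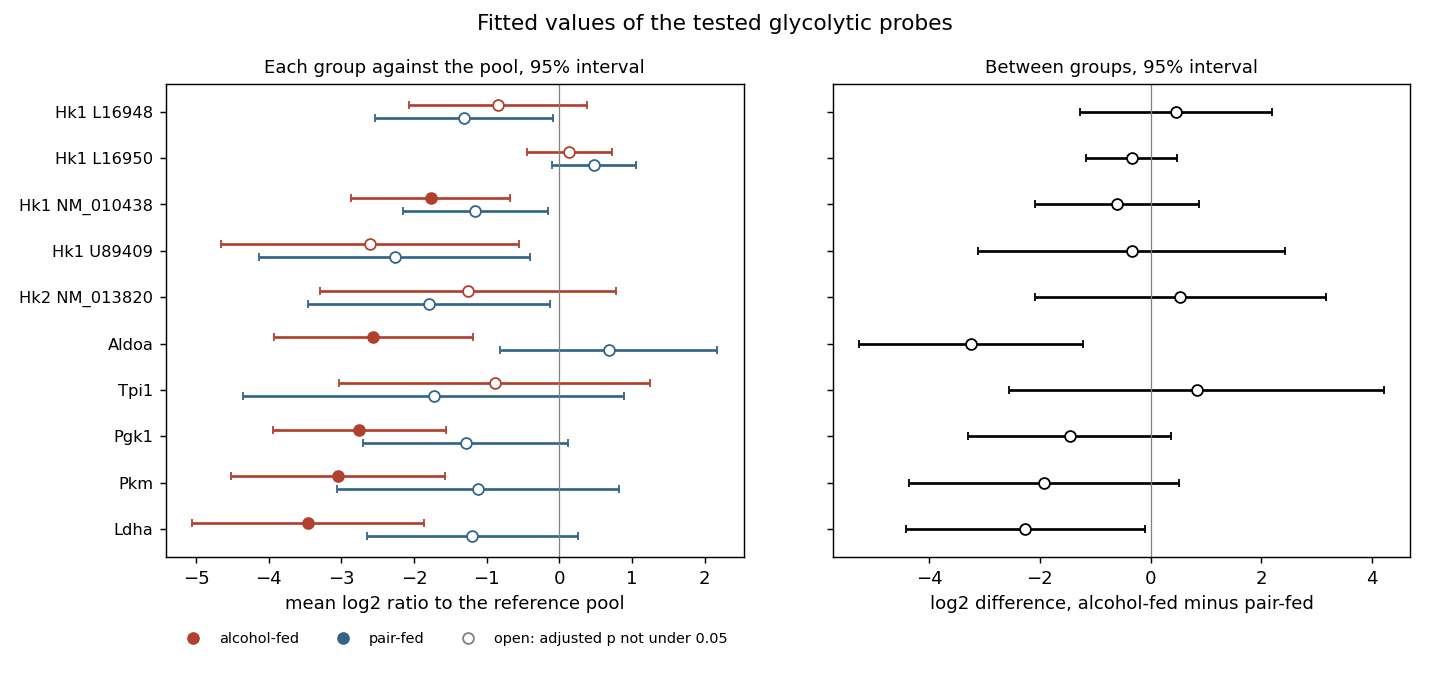
Left, the fitted mean log2 ratio to the pool of the 10 tested glycolytic probes in pathway order, alcohol-fed (red) above pair-fed (blue), with filled points for a limma adjusted p under 0.05; right, the log2 difference, alcohol-fed minus pair-fed; bars are 95% intervals. The 5 filled points are all alcohol-fed, and at right the intervals of Aldoa and Ldha alone leave out 0, before adjustment over all probes.

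The calls for Aldoa, Pgk1, Pkm and Ldha in the alcohol-fed group held when any 1 array was left out (with 3 values per group then required), with limma adjusted p-values of at most 0.0408, 0.00872, 0.0222 and 0.0253. Leaving out the 3 arrays with most placeholders, pair-fed 6 and 7 and alcohol-fed 6, with 3 values per group required, gave 7 of 11 tested members lower in the alcohol-fed group (15.8% of all probes) and 2 of 11 in the pair-fed group (12.8% of all probes), both pair-fed calls being Hk1 probes. Without pair-fed array 6 alone the counts were 8 of 12 (16.6% of all probes) and 3 of 12 (13.0%), and without alcohol-fed array 3 they were 6 of 11 (12.3%) and 3 of 11 (12.8%).

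Read array by array, the members were spread widely. The median of the member probes on an array ran from -2.57 (array 3) to -0.63 (array 1) in the alcohol-fed group and from -2.20 (array 1) to 0.15 (array 6) in the pair-fed group. It was below 0 on all 7 alcohol-fed arrays and on 6 of 7 pair-fed arrays. On alcohol-fed array 2 were the lowest alcohol-fed values of Pkm and Ldha and the highest of Tpi1, and on array 3 the lowest of Pgk1 and of Hk1 U89409 and the highest of Hk2 NM_013820. Values below -5 also stood on alcohol-fed arrays 1 (Tpi1) and 6 (Ldha) and on pair-fed arrays 1 (Tpi1) and 2 (Hk1 U89409). Pair-fed array 6, where 3 of 8 members with a value were below 0, also had the most placeholders (14.6% of all its probes). Residual SDs of the members were high: 8 of 10 exceeded that of at least 91.1% of all tested probes.

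**Figure D3:**
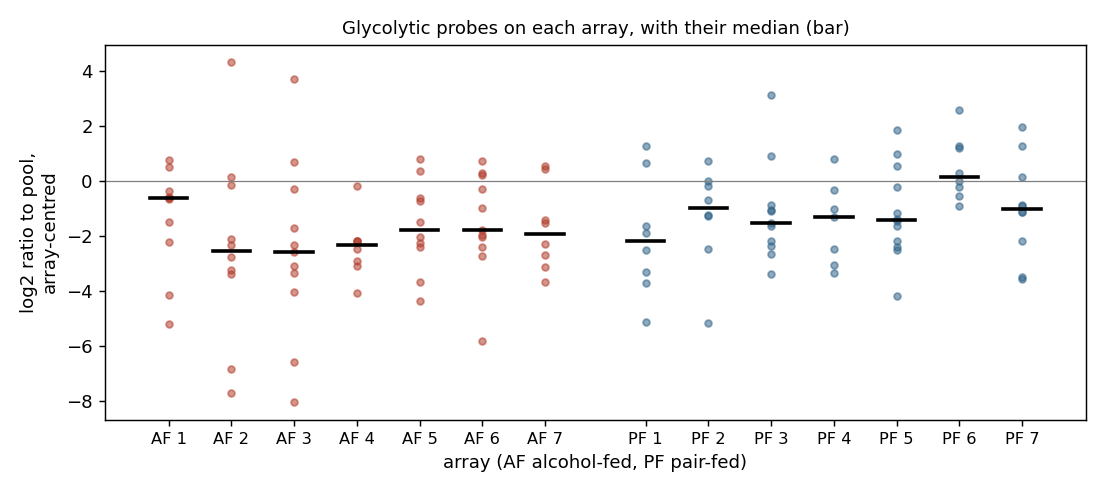
Array-centred log2 ratio (vertical axis) of every glycolytic probe with a value on each of the 14 arrays, alcohol-fed (AF) at left and pair-fed (PF) at right, with the member median as a bar. The bars lie below 0 on all arrays other than PF 6, where the median is 0.15.

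How far the low ratios go with missing values can be measured over the whole table. Of 14666 tested probes with no placeholder, 10.7% were called lower and 10.7% higher in the alcohol-fed group, and 10.6% and 10.6% in the pair-fed group. Of 2407 probes with 2 to 5 placeholders, the range in which 8 of the 10 tested members lie, 34.4% were called lower and 0.499% higher in the alcohol-fed group, with 23.3% and 0.665% in the pair-fed group. The median log2 ratio of those probes was -1.06 in the alcohol-fed and -0.84 in the pair-fed group, and their median residual SD was 1.40, against 0.89 for probes with no placeholder. Among the 8 members in that range 5 were called lower in the alcohol-fed group and 0 in the pair-fed group. Both members with no placeholder were Hk1 probes that passed in neither group. The part of missing values in the low ratios of the members was not tested.

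**Figure D4:**
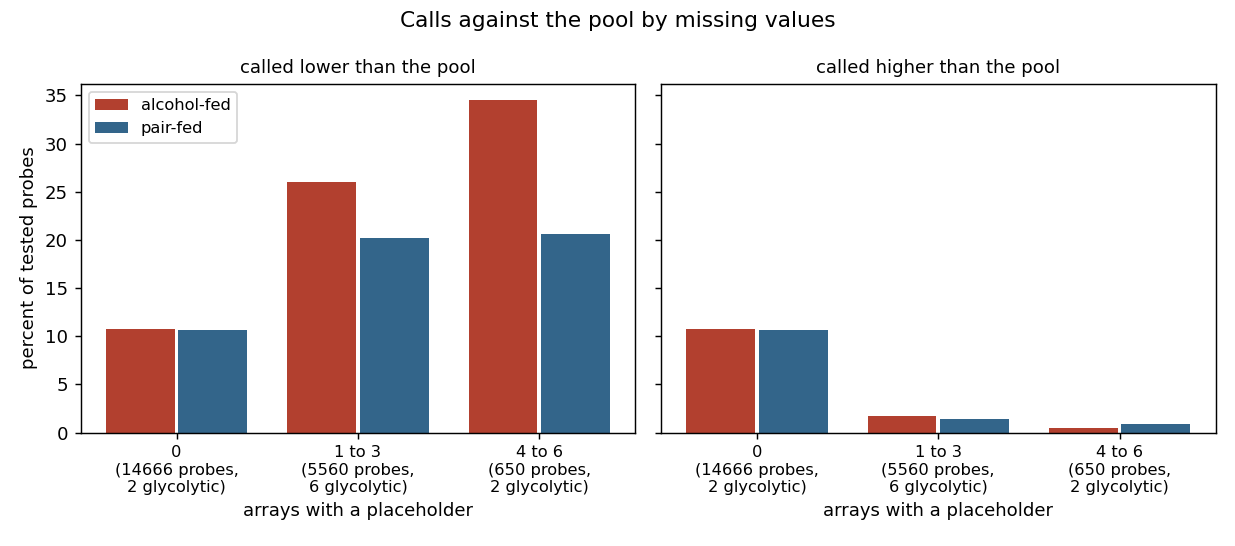
Percent of tested probes called lower (left) or higher (right) than the pool by limma, alcohol-fed in red and pair-fed in blue, by the number of arrays on which the probe had a placeholder. The share called lower in the alcohol-fed group is 10.7% with no placeholder, 26.0% with 1 to 3 and 34.5% with 4 to 6.

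Other genes of the pathway gave a mixed picture. Of 41 measured genes in 7 lists of further isozymes, regulators, transporters, branch enzymes and hypoxia factors, 0 passed between the groups, with a median difference of -0.019 over 43 probes. Against the pool 12 genes were lower and 2 higher in the alcohol-fed group (median log2 ratio -0.90), where 15.5% and 8.02% of all probes were. In the pair-fed group 11 were lower and 4 higher (median -0.67), where 13.5% and 7.86% of all probes were. Counted by probe, of 43, these numbers were the same in both groups.

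Among the other isozymes and enzymes of the chain, calls against the pool were all lower. Of 9 measured genes 5 were lower and 0 higher in the alcohol-fed group, and 2 lower and 0 higher in the pair-fed group, where 15.5% and 13.5% of all probes were lower. Bpgm, which makes the haemoglobin effector 2,3-bisphosphoglycerate in red cells, was at -4.42 ± 0.68 (limma SE) in the alcohol-fed and -1.10 ± 0.68 in the pair-fed group, where it did not pass. Gapdhs, the sperm form of glyceraldehyde phosphate dehydrogenase, was at -2.44 ± 0.48 and -0.17 ± 0.52, again past the threshold in the alcohol-fed group alone. Their differences of -3.32 ± 0.96 and -2.28 ± 0.71 did not pass. Also lower in the alcohol-fed group were the phosphofructokinase subunits Pfkm of muscle (-3.75 ± 1.21) and Pfkp of platelets (-2.25 ± 0.61). In the pair-fed group these subunits stood at -1.87 ± 0.91 and -1.37 ± 0.51 and did not pass. The brain aldolase Aldoc was lower in both, at -2.48 ± 0.67 in the alcohol-fed and -2.48 ± 0.67 in the pair-fed group. The neuronal enolase Eno2 was lower in the pair-fed group (-2.71 ± 0.78) and stood at -1.33 ± 0.69 in the alcohol-fed group, where it did not pass.

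Erythroid and other marker genes were set beside these values, since Bpgm marks red cells. Of 7 measured erythroid genes 3 were called lower in each group, by 3 of 9 probes, and 0 higher. Over all probes 15.5% were lower and 8.02% higher in the alcohol-fed group, and 13.5% and 7.86% in the pair-fed group. The median over the 9 erythroid probes on an array ran from -1.69 to -0.32 in the alcohol-fed and from -1.56 to -0.28 in the pair-fed group. Between the groups the erythroid probes with the smallest p were Epor, at -0.59 ± 0.46, and Tfrc, at -0.65 ± 0.59, neither past the threshold. The other Tfrc probe was at 0.15 ± 0.49, and the median difference of the 9 probes was -0.32. Differences for markers of hepatocytes (Ahsg 1.18 ± 0.50, Alb 1.84 ± 1.55), neurons (Gad2 -0.76 ± 0.41 and, by its other probe, 0.91 ± 0.88, Nefl -0.43 ± 0.37) and heart (Nkx2-5 1.44 ± 0.52, Tnnt2 -1.02 ± 1.16) did not pass. Against the pool, beside the same shares of all probes, 3 of 9 hepatocyte genes were lower in the alcohol-fed and 4 in the pair-fed group. By probe these were 3 and 4 of 11. Of 5 heart genes 2 were lower in the alcohol-fed and 3 in the pair-fed group. Of 7 neuron genes (8 probes) 1 was lower in the alcohol-fed group, and in the pair-fed group 1 was lower and 2 higher, with Gad2 called both ways. Their part in the glycolytic values was not tested.

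Glucose and lactate transporters were called lower or not at all. Of 5 measured glucose and lactate transporters 3 were lower in the alcohol-fed group and 4 in the pair-fed group. Over all probes 15.5% and 13.5% were lower. The lactate carrier Slc16a1 was at -1.58 ± 0.29 in the alcohol-fed and -1.36 ± 0.32 in the pair-fed group, Slc16a3, which exports lactate from glycolytic cells, at -1.21 ± 0.37 and -1.96 ± 0.40, and the liver and islet glucose transporter Slc2a2 at -2.30 ± 0.43 and -1.81 ± 0.57. Slc2a3, a glucose transporter of neurons and placenta, passed in the pair-fed group (-1.30 ± 0.39) and not in the alcohol-fed group (-0.61 ± 0.39). Slc2a1, the widespread glucose transporter, stood at 0.21 ± 0.35 in the alcohol-fed and -0.60 ± 0.38 in the pair-fed group and passed in neither.

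Of 7 genes of pyruvate entry into mitochondria, 2 were higher in both groups, where 8.02% (alcohol-fed) and 7.86% (pair-fed) of all probes were higher. The 2 genes were Mpc1, a subunit of the pyruvate carrier (1.05 ± 0.26 in the alcohol-fed and 0.77 ± 0.26 in the pair-fed group), and Dld, the dehydrogenase subunit shared by several complexes (0.94 ± 0.25 and 0.96 ± 0.25). Pdk4, the kinase that shuts the pyruvate dehydrogenase complex during fasting, was lower in the pair-fed group (-1.93 ± 0.59). In the alcohol-fed group Pdk4 stood at -1.41 ± 0.78 and did not pass. Dlat, the acetyltransferase of that complex, passed in neither group (-1.06 ± 0.59 in the alcohol-fed and 0.37 ± 0.54 in the pair-fed group).

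Of 2 measured regulator genes (3 probes) 1 was lower in each group, by 1 probe, and 0 were higher. Of 6 measured pentose phosphate genes (6 probes) 2 were lower in the alcohol-fed and 1 in the pair-fed group, and 0 were higher. Over all probes 15.5% were lower and 8.02% higher in the alcohol-fed group, and 13.5% and 7.86% in the pair-fed group. Pfkfb2, which makes the activator of phosphofructokinase, was lower in both groups by 1 of its 2 probes (-1.53 ± 0.50 in the alcohol-fed and -2.29 ± 0.50 in the pair-fed group; the other at -0.062 ± 0.29 and 0.34 ± 0.29), and Gckr, the glucokinase regulator of liver, passed in neither (-1.36 ± 0.50 and -0.40 ± 0.66). In the pentose phosphate branch Taldo1 (-3.16 ± 0.74) and Tkt (-2.11 ± 0.66), the transaldolase and transketolase, were lower in the alcohol-fed group. In the pair-fed group they stood at -2.02 ± 0.74 and -1.70 ± 0.72 and did not pass. The epimerase Rpe was lower in the pair-fed group (-1.20 ± 0.38) and stood at -0.315 ± 0.38 in the alcohol-fed group. Pgd, which releases carbon dioxide in that branch, passed in neither group (0.31 ± 0.40 in the alcohol-fed and -0.67 ± 0.40 in the pair-fed group). Adpgk, a glucokinase that uses ADP, was higher in the pair-fed group (0.95 ± 0.29) and stood at 0.54 ± 0.29 in the alcohol-fed group.

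Of 11 measured hypoxia factors and other targets of these (12 probes), 1 was lower and 0 higher in the alcohol-fed group. Over all probes 15.5% were lower and 8.02% higher there. In the pair-fed group 2 were lower and 1 higher, where 13.5% and 7.86% of all probes were. The median log2 ratio of the 12 probes was 0.28 in the alcohol-fed and -0.026 in the pair-fed group. Ndrg1, a stress-responsive target, was lower in the alcohol-fed group by 1 probe (-2.12 ± 0.54), while its other probe did not pass (-2.38 ± 1.09). In the pair-fed group these probes stood at -1.15 ± 0.54 and -1.97 ± 0.98 and did not pass. In the pair-fed group the oxygen sensor Egln2 (-2.15 ± 0.34) and the vasodilator peptide gene Adm (-1.19 ± 0.40) were lower and the hypoxia factor Epas1 (1.31 ± 0.41) was higher. Egln2 had the smallest p of this list between the groups, with a difference of 1.26 ± 0.48, followed by Myc at 0.60 ± 0.47, neither past the threshold.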

How the data were processed

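Per the labels' protocols, RNA came from an Ambion kit for small RNA and was labelled in Cy3 and Cy5 with a Genisphere dendrimer kit. The table the authors deposited holds 1 log2 ratio per probe and array; the log base and any centring are unstated and were read from the values. The sources used here name no scanner, background method or normalization. Values of exactly 0 or at the table's highest value were set to missing and each array was centred on its median. Limma 3.58.1 in R 4.3.3 (lmFit, eBayes, all 14 arrays in 1 fit, two-sided) tested the 20876 probes with at least 4 values per group, with Benjamini-Hochberg adjusted p under 0.05 over all of them as the threshold. A standard error marked as limma's combines 1 moderated variance per probe from both groups with the number of values; SDs are of the values themselves.

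Probe symbols come from the platform annotation, which is old, matched by gene number to RefSeq names. In a test on simulated data with 200 of 20876 probes changed between the groups, none of the 2-fold changes passed (0%), with recovery of 32.0% at 4-fold and 80.0% at 8-fold and 0, 3 and 5 false calls. Recovery was not given for the glycolytic probes alone. Their median standard error of a difference was 0.98, against 0.52 over all probes, so these shares cannot be read as theirs. The number of arrays limits the precision.

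Members and gene lists were chosen with earlier results of these data known. All member probes are named; of other pathway genes those past the threshold and, per list, the 2 with the smallest p between the groups; of marker lists only those 2. The split of probes by number of placeholders was chosen after the data were seen. Other settings tried were values as deposited, quantile normalization, placeholders kept, stricter and looser filters, array weights, robust eBayes, each group alone, the replicate number as a block, averaged probes, and each array left out with at least 3 values per group. Same-numbered arrays deviated together in 1 of 7 pairs (correlation over 0.1), so the numbers were not taken as pairs.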

Additional observations from a re-analysis of the deposited data

Results flagged for a closer look

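Of 22 combinations of a member probe and a group with 4 to 7 values, 4 held 1 array far from the others by Dixon's test, where chance flags about 1 in 20. All 4 were in the alcohol-fed group. Hk1 probe U89409 had -8.06 on array 3, 5.81 below the next of 5 values. Pgk1 had -6.57 on the same array, 3.81 below the next of 7. Hk2 probe NM_013820 had 3.71 there, 6.09 above the next of 4. Aldoa had -4.16 on array 1, 1.83 below the next of 6. Without array 3 the alcohol-fed Pgk1 mean was -2.12 and remained past the threshold (limma adjusted p = 0.00582).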

How the results depend on the processing

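Between the groups 0 probes passed in every setting run, with 561 to 1032 at an unadjusted p under 0.05 in the settings that keep all arrays; the difference changed sign in 7 cases. For Hk1 U89409 it was 0.084 with placeholders kept, 1.02 without alcohol-fed array 3 and 0.37 without pair-fed array 6. For Hk2 it was -1.12 without alcohol-fed array 3, for Tpi1 -0.21 and -0.29 without alcohol-fed array 2 or pair-fed array 1, and for Hk1 NM_010438 0.54 without the 3 arrays with most placeholders. Member probes called lower numbered 6 to 8 in the alcohol-fed and 0 to 3 in the pair-fed group, of 11 or 12 tested, with 1 array left out and 3 values per group required. Over all probes 12.2% to 16.6% were then lower in the alcohol-fed and 10.3% to 14% in the pair-fed group. With 2 values per group required they were 7 and 1 of 12, against 5 and 0 of 10. With only probes valued on all arrays the alcohol-fed count was 0, since 2 member probes then entered the test, with 11.3% of all probes lower. In the pair-fed group the count was 1 of 10 with array weights (13.9% of all probes lower) and 2 of 10 with each group fitted alone (10.1%). It was 2 of 11 without the 3 arrays with most placeholders (12.8%). Calls over all probes moved for alcohol-fed higher (2894 with quantile normalization, 1042 to 1842 with 1 array left out). They also moved for pair-fed higher (920 with the group alone, 1020 to 1880 with 1 array left out). Lower calls numbered 1655 in the alcohol-fed and 1696 in the pair-fed group with complete probes. That was 11.3% and 11.6% of the 14666 then tested, against 15.5% and 13.5% of 20876. With 1 array left out lower calls ran from 2580 to 3520 and from 2180 to 2971. With the replicate block, which the pairing check does not bear out, 6 alcohol-fed and 2 pair-fed member probes of 10 were lower. Over all probes 15.1% and 13.2% were lower under it, the Aldoa difference was -2.60, and 0 probes passed between the groups. With 1 array left out the difference ran from -0.92 to 1.02 for Hk1 U89409, from -1.12 to 1.19 for Hk2 and from -0.29 to 1.70 for Tpi1. The cause of these changes was not tested.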
